A study of Mus musculus with 10 samples.

Results

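Langerhans cells and conventional dendritic cells (cDCs) are the antigen-presenting sentinels of skin, and 10 genes that mark them were followed here in mouse back skin with wild-type or raised tristetraprolin (TTP). The genes were chosen by name, as the epidermal Langerhans marker *Cd207*, the cDC1 genes *Xcr1*, *Clec9a*, *Batf3* and *Irf8*, the cDC2 genes *Irf4* and *Cd209a*, and the genes *Flt3*, *Itgax* and *Zbtb46* that cDC lineages share. They are 10 of the 24452 named genes in the count table, and all of them passed the filter on low counts. RNA was sequenced from full-thickness, treated but tumor-free back skin of 5 WT mice and 5 *Zfp36*ΔARE knockin mice on the C57BL/6 strain, 1 library per mouse. In the knockin mice, labelled TTP delta ARE, an instability motif in the 3′-UTR of the endogenous *Zfp36* gene is deleted in every cell, so the change is not restricted to skin or to dendritic cells. The WT animals were littermate controls. Both groups were young adults when a single dose of 400 nmol DMBA, a mutagen that initiates skin tumors, was painted on the shaved back. Both then received 10 nmol of TPA, a phorbol ester that promotes tumors, 2 times per week for 20 weeks, and no untreated skin was analysed here.

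As background, Langerhans cells live among keratinocytes, arise from embryonic precursors and depend on IL-34 through the CSF1 receptor and on TGF-β. The cDCs of the dermis are renewed from bone marrow precursors that need the receptor FLT3. The cDC1 branch, which takes up dead cells and presents their antigens to CD8+ T cells, is set by the transcription factors IRF8 and BATF3. The cDC2 branch, which primes CD4+ T cells, relies on IRF4. TTP binds AU-rich elements in 3′-UTRs, whose core is the pentamer ATTTA, and directs those mRNAs to decay.

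The total count per library lay between 19595024 and 36419553, and the 10 genes together held 1190 to 3725 of those counts, or 0.00876% of all counts. *Zfp36* itself, whose exons overlap an antisense gene, lay between 1824 and 2496 normalized counts in WT and between 4196 and 6134 in *Zfp36*ΔARE skin. Normalized counts are counts scaled by edgeR's TMM factors to the mean effective library size. Y-linked transcripts (*Uty*, *Kdm5d*, *Eif2s3y* and *Ddx3y*, summed) had 3349 to 4262 counts in *Zfp36*ΔARE replicates 2 to 5 and at most 1 in the other 6 libraries, so that *Zfp36*ΔARE replicate 1 was the only knockin library without them. Sex and genotype therefore cannot be told apart in the other knockin libraries. WT replicates 1 and 3 were lowest in hair shaft genes, with mean log2 scores of 9.97 and 7.24 against 12.0 to 12.4 in the other WT libraries. The knockin libraries lay at 13.1 to 14.2, each above every WT library. Hair shaft score and genotype therefore cannot be fully told apart either.

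In skin of *Zfp36*ΔARE mice, 8 of the 10 genes were lower than in WT at an adjusted p under 0.05 (quasi-likelihood test of edgeR, adjusted by Benjamini-Hochberg over 15543 genes), where 19.1% of all tested genes were lower by the same rule. None of the 10 was higher, with 0 also at an unadjusted p under 0.05 and 0 by DESeq2, whereas 15.3% of all tested genes were higher. With the further condition of a fold change over 2, the calls were *Irf4*, *Itgax* and *Batf3*, 3 of 10 against 6.64% of all genes. The median log2 fold change over the 10 genes was -0.78, which is 58.2% of the WT level, and over all tested genes it was 0.0076. The groups did not overlap in *Cd207*, *Irf8* and *Irf4*, 3 of 10 genes, and 11.9% of all tested genes were set apart downward in the same way. Without WT replicates 1 and 3, low in hair shaft genes, 3 of the 10 were lower against 9.06% of all genes. With the hair shaft score as a covariate 0 were (3 at an unadjusted p under 0.05), against 0.0708% of all genes. In the 6 libraries without Y-linked counts 0 were (2 unadjusted), and 0 of all genes were called with a single knockin mouse. There *Cd207* stood at -0.78 (adjusted p = 0.31), *Irf8* at -0.70 (0.36), *Irf4* at -1.26 (0.30) and *Itgax* at -1.46 (0.32). The log2 values of the other 4 called genes were -0.60 in *Cd209a*, -0.84 in *Flt3*, -0.84 in *Batf3* and -0.29 in *Xcr1* (adjusted p = 0.32 to 0.78). With the covariate *Cd207* stood at -0.43 (adjusted p = 0.29), *Irf8* at -0.30 (0.28), *Irf4* at -1.11 (0.076) and *Itgax* at -0.60 (0.51). The other 4 were at -0.04 in *Cd209a*, -0.24 in *Flt3*, -0.44 in *Batf3* and -0.50 in *Xcr1* (adjusted p = 0.57 to 0.95). The part of hair stage and of sex in the 8 calls was not tested beyond these values. The hair shaft score did not overlap between the groups, so the covariate fit cannot separate it from genotype. Fewer dendritic cells, fewer other cells that share these genes and less of these RNAs per cell cannot be told apart in whole skin.

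**Figure D1:**
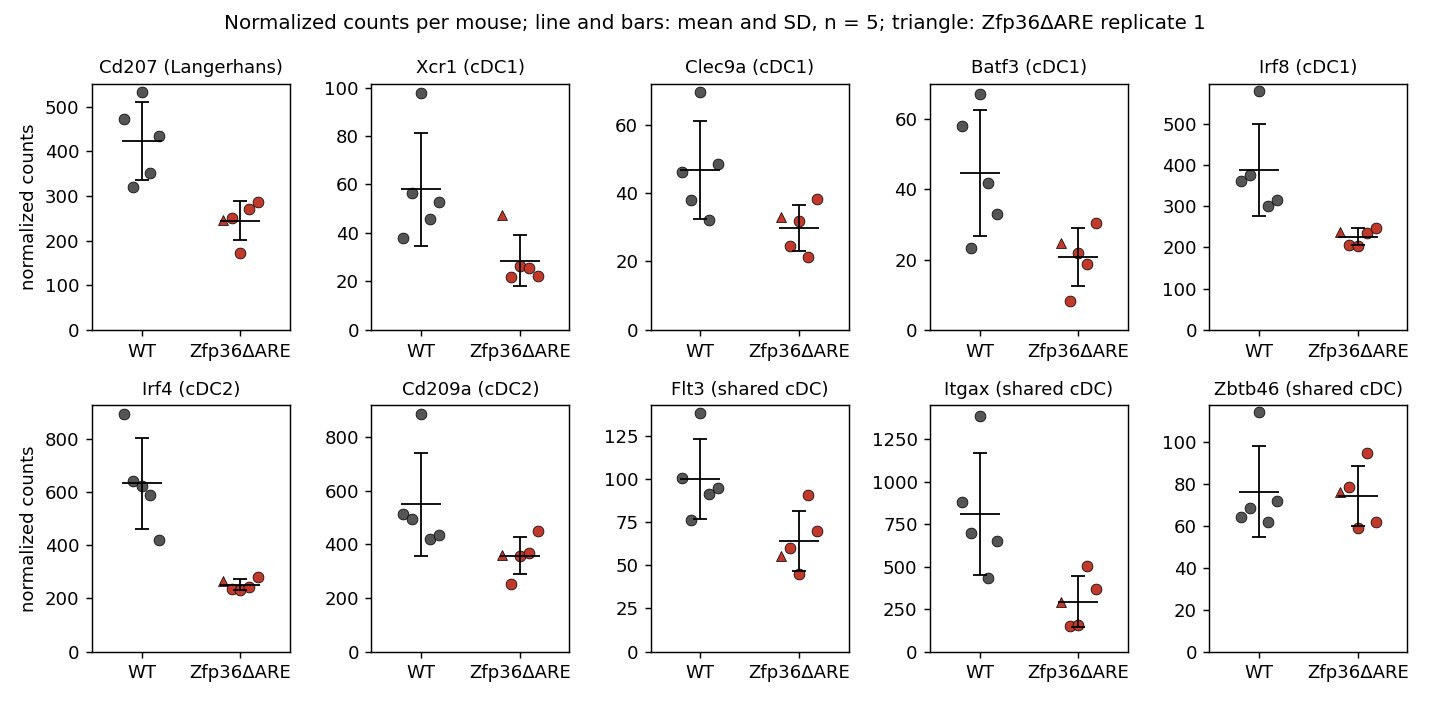
Normalized counts (vertical axes, from 0) of the 10 genes in each of the 5 WT and 5 Zfp36ΔARE mice, with 1 point per mouse, the mean as a line and the SD as bars. The groups are separate in Cd207, Irf8 and Irf4. The triangle, Zfp36ΔARE replicate 1 without Y-linked counts, lies above the lowest WT library only in Xcr1, Clec9a, Batf3 and Zbtb46. In Clec9a it is above WT replicate 4 alone and in Batf3 above WT replicate 2 alone, and Zfp36ΔARE replicate 5 is higher in both.

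Since TTP acts on AU-rich elements, the annotated 3′-UTRs of the genes were read in the GRCm38 (mm10) genome. At least 1 ATTTA was present in 8 of the 10, and 61.6% of 20641 protein-coding genes with a 3′-UTR hold one. The longer nonamer TTATTTATT, a stronger class of TTP site, was in 0 of the 10 and is in 6.92% of all genes. *Xcr1* had the most pentamers, with 8 in 3364 bases, followed by *Clec9a* with 5 in 2405 bases. *Itgax* and *Batf3*, which were among the larger decreases, had none in 463 and 310 bases. *Irf4*, also among the larger decreases, had 3 in 3309 bases. *Zbtb46*, the gene with the smallest difference, had 3 in 3302 bases. The sites of *Cd207*, the last sites of *Irf8* and *Irf4*, which are the genes whose groups did not overlap, and 1 site of *Zbtb46* for contrast are printed here in the sense of the mRNA with the pentamer in capitals.
Cd207, chr6:83671304-83671328, minus strand: acatgcccaaATTTAaccatgatac
Cd207, chr6:83671288-83671312, minus strand: ccatgatacaATTTAtacaacatgt
Irf8, chr8:120756615-120756639, plus strand: gtgtccaaatATTTAtttttgtatt
Irf4, chr13:30766402-30766426, plus strand: tgtttttgttATTTAtctccctaaa
Zbtb46, chr2:181388125-181388149, minus strand: tttcttaaatATTTAtttttttcaa
Pentamers were thus found in genes that fell and in both genes that did not pass by edgeR. Those were *Clec9a* (log2 fold change -0.64, adjusted p = 0.063) and *Zbtb46* (-0.04, adjusted p = 0.90). Binding of TTP to any of the pentamers was not measured.

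Per length of the counted exons, the order of the levels in WT was *Cd209a* (370 ± 129 normalized counts per kilobase, SD, n = 5), *Cd207* (276 ± 57.0), *Itgax* (201 ± 89.6), *Irf4* (135 ± 36.3), *Irf8* (113 ± 32.5), *Batf3* (62.7 ± 25.1), *Flt3* (27.4 ± 6.29), *Zbtb46* (22.9 ± 6.52), *Clec9a* (14.2 ± 4.34) and *Xcr1* (13.0 ± 5.22). Each neighbouring pair in that order overlapped between mice. In *Zfp36*ΔARE skin *Cd209a* and *Cd207* were again highest on this scale, at 241 ± 47.2 and 160 ± 28.5, and *Clec9a* and *Xcr1* lowest, at 9.04 ± 2.07 and 6.43 ± 2.37. In 2 cases neighbours changed places, with *Irf8* (65.8) above *Irf4* (53.7) and *Zbtb46* (22.3) above *Flt3* (17.6), and the ranges of both pairs overlapped.

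*Cd207* (Entrez 246278, chr6:83671215-83677857, minus strand, 6 exons) encodes langerin, the C-type lectin of the Birbeck granules of Langerhans cells, which a subset of dermal cDC1 also carries. It had 472, 321, 533, 350 and 434 normalized counts in WT replicates 1 to 5 and 246, 250, 172, 270 and 286 in *Zfp36*ΔARE replicates 1 to 5. Each knockin mouse was below each WT mouse, and WT replicate 3 was the highest library of all. The means were 422 ± 87.3 and 245 ± 43.6 (SD, n = 5 in both), with a log2 fold change of -0.79 (SE, its standard error, 0.17, 95% interval of the log2 value -1.16 to -0.41, adjusted p = 0.0096), or 58.0% of WT. The call held with each library left out in turn, with log2 fold changes from -0.87 to -0.69.

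Around *Cd207*, a list of 14 other genes of Langerhans identity and niche gave 5 lower, 1 higher and a median of -0.44. *Csf1r*, the receptor through which IL-34 keeps these cells alive and which macrophages also carry, fell from 4715 ± 1325 to 1663 ± 408 normalized counts (SD, n = 5 each). *Tgfbr2*, a TGF-β receptor needed to hold Langerhans cells in the epidermis and present in many cell types, fell by 1.22 on the log2 scale (SE 0.15, adjusted p = 0.0037). *Ccl20*, a chemokine that draws CCR6-bearing cells, fell by 1.37 (SE 0.33, adjusted p = 0.014) at a WT mean of 58.0. The epithelial genes *Epcam*, which Langerhans cells share with keratinocytes, and *Cdh1*, the E-cadherin that anchors them, had log2 fold changes of 0.05 and 0.28 with adjusted p of 0.79 and 0.11. Of 3 further genes, singled out after their values were seen, the ligand *Il34* was lower (633 ± 133 against 405 ± 19.5 normalized counts, log2 fold change -0.64, adjusted p = 0.0079). *Tgfb1* was lower by less, at a log2 fold change of -0.37 (adjusted p = 0.026). *Id2*, a factor needed for Langerhans cells and used by keratinocytes as well, was higher, at 0.43 (adjusted p = 0.0053). Among basal keratinocyte markers 2 of 6 were lower, with a median of -0.21, and *Krt5* and *Krt14* stood at -0.07 and -0.14 without passing (adjusted p = 0.80 and 0.72).

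*Irf8* (Entrez 15900, chr8:120736358-120756694, plus strand, 9 exons) encodes the factor that specifies cDC1 and is also used by monocytes and B cells. Its normalized counts were 362, 376, 578, 301 and 316 in WT replicates 1 to 5 and 238, 206, 203, 235 and 248 in *Zfp36*ΔARE replicates 1 to 5. The groups did not overlap, and the knockin mice varied little, with a coefficient of variation of 8.85% against 28.9% in WT. The log2 fold change was -0.77 (SE 0.17, 95% interval -1.15 to -0.40, adjusted p = 0.011), and it stayed called with each library left out, from -0.85 to -0.59.

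The remaining cDC1 genes rested on few fragments, between 9 and 80 raw counts in any library. *Xcr1* (Entrez 23832, chr9:123852315-123862029, minus strand, 2 exons) encodes the receptor for the chemokine XCL1 and is the most specific cDC1 marker at the cell surface. It had 37.8, 56.5, 97.6, 45.6 and 52.6 normalized counts in WT replicates 1 to 5 and 47.2, 21.7, 26.4, 25.4 and 22.4 in *Zfp36*ΔARE replicates 1 to 5. Replicate 1 of the knockin, the one without Y-linked counts, was at 81.4% of the WT mean and within the WT range, and the other 4 were at 37.4% to 45.4% and below every WT mouse. The log2 fold change was -0.99 (SE 0.31, adjusted p = 0.032). Its call was lost without WT replicate 3 (log2 fold change -0.73, adjusted p = 0.064) and without *Zfp36*ΔARE replicate 2, 3, 4 or 5 (adjusted p = 0.059 to 0.076). In the libraries without Y-linked counts alone it was -0.29 (adjusted p = 0.78).

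*Clec9a* (Entrez 232414, chr6:129408862-129424763, plus strand, 7 exons), the receptor by which cDC1 sense actin of dead cells, had 46.0, 37.96, 69.6, 32.0 and 48.5 normalized counts in WT replicates 1 to 5 and 33.0, 24.4, 31.8, 21.4 and 38.2 in *Zfp36*ΔARE replicates 1 to 5. The groups overlapped, and the log2 fold change of -0.64 (SE 0.24, 95% interval -1.18 to -0.10) did not pass, at an adjusted p of 0.063. It passed without WT replicate 4 (-0.75, adjusted p = 0.039) and with DESeq2 (-0.63, adjusted p = 0.048). *Batf3* (Entrez 381319, chr1:191097847-191108945, plus strand, 3 exons), the AP-1-like factor that cDC1 need to persist, had 58.0, 23.4, 67.1, 41.7 and 33.0 normalized counts in WT replicates 1 to 5 and 24.7, 8.15, 21.96, 18.7 and 30.3 in *Zfp36*ΔARE replicates 1 to 5. These groups overlapped in part, with WT replicate 2 at the level of the knockin mice. Its log2 fold change was -1.10 (SE 0.37, adjusted p = 0.041), and the call was lost without WT replicate 1, 3 or 4 or *Zfp36*ΔARE replicate 1, 2, 3 or 4, with adjusted p between 0.056 and 0.093, and with limma-voom (0.053).

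Of 8 other genes on the cDC1 list, 4 were lower and none higher, with a median of -0.35. *Gcsam*, a signalling adaptor gene that cDC1 and germinal-centre B cells use, fell from 59.0 ± 20.7 to 13.5 ± 4.45 normalized counts (SD, n = 5 in both), with a log2 fold change of -2.15 (SE 0.31, adjusted p = 0.0041). *Wdfy4*, which cross-presentation by cDC1 requires, fell by 1.12 on the log2 scale (SE 0.21, adjusted p = 0.0072). *Naaa*, a lipid amidase with high levels in cDC1, fell by 0.88 (adjusted p = 0.0069), from 1564 ± 288 to 853 ± 175 normalized counts. The adhesion gene *Cadm1*, which many skin cells use, had a log2 fold change of -0.18 (adjusted p = 0.19).

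*Irf4* (Entrez 16364, chr13:30749226-30766976, plus strand, 9 exons) encodes the factor by which cDC2 mature and migrate, and it also acts in plasma cells, macrophages and melanocytes. It had 892, 641, 621, 589 and 419 normalized counts in WT replicates 1 to 5 and 264, 237, 232, 242 and 282 in *Zfp36*ΔARE replicates 1 to 5. All knockin mice were below all WT mice, within a span of 232 to 282. The means were 633 ± 170 and 251 ± 21.1, a log2 fold change of -1.33 (SE 0.17, 95% interval -1.71 to -0.96, adjusted p = 0.0037), or 39.7% of WT. It was called with each library left out, from -1.45 to -1.18. Other cells that use *Irf4* moved in both directions. Of 9 melanocyte markers 8 were higher, their summed normalized counts ran from 4866 to 14525 in WT and from 14631 to 25937 in knockin skin, and the 2 with the most counts, *Dct* and *Tyrp1*, stood at log2 fold changes of 0.96 and 1.13 (adjusted p = 0.024 and 0.020). The plasma cell gene *Jchain* fell from 397 ± 91.8 to 78.6 ± 26.1 normalized counts (log2 fold change -2.35, adjusted p = 0.0024), and *Mzb1* stood at -0.97 (adjusted p = 0.059). Of the 6 B and plasma cell markers 3 were tested and 1 was lower, the summed normalized counts ran from 339 to 590 in WT and from 78.0 to 161 in knockin skin, and *Pax5* was near 0 with 10 counts in all libraries. The part of either cell type in *Irf4* was not tested.

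*Cd209a* (Entrez 170786, chr8:3743397-3748984, minus strand, 7 exons), a DC-SIGN family lectin of cDC2 and monocyte-derived cells, had 514, 494, 886, 419 and 434 normalized counts in WT replicates 1 to 5 and 361, 253, 358, 367 and 450 in *Zfp36*ΔARE replicates 1 to 5. WT replicate 3 stood far above the rest, and the groups overlapped only through *Zfp36*ΔARE replicate 5. The log2 fold change was -0.62 (SE 0.22, adjusted p = 0.049), and without WT replicate 3 it was -0.38 (adjusted p = 0.076). With the hair shaft score as a covariate it was -0.04 (adjusted p = 0.95). The call was also lost without WT replicate 1 or 2 or *Zfp36*ΔARE replicate 1, 2, 3 or 4 (adjusted p = 0.061 to 0.106), with limma-voom (0.054), with DESeq2's size factors (0.051) and with no filter on low counts (0.056).

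Of 14 other genes on the cDC2 list 11 were lower and 1 was higher, with a median of -1.14. *Mgl2* and *Clec10a*, lectins of the CD301 family that mark dermal cDC2 and also dermal macrophages, fell from 1894 ± 692 to 786 ± 177 and from 1871 ± 556 to 770 ± 119 normalized counts. *Itgam*, the CD11b integrin chain of cDC2, macrophages and neutrophils, fell by 1.52 on the log2 scale (SE 0.26, adjusted p = 0.0055), and *Zeb2*, a factor that favours cDC2 over cDC1, fell by 1.15 (SE 0.17, adjusted p = 0.0045). The relatives *Cd209b*, *Cd209c*, *Cd209f* and *Cd209g* fell by between 1.12 and 1.23 on the log2 scale, with adjusted p between 0.0040 and 0.0085. The rest of the family on the list, added for completeness, changed less. *Cd209d* stood at -0.65 (adjusted p = 0.026), and *Cd209e* at -0.34 did not pass (adjusted p = 0.21). *Klf4*, a cDC2 factor with much higher levels in keratinocytes, stood at 0.05 (adjusted p = 0.75), and *Notch2*, which is also widespread, was the gene that was higher, at 0.22 (adjusted p = 0.032).

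Among the shared cDC genes, *Flt3* (Entrez 14255, chr5:147330741-147400489, minus strand, 24 exons) encodes the growth factor receptor of the whole lineage. It had 100.4, 75.9, 138, 91.2 and 94.9 normalized counts in WT replicates 1 to 5 and 55.5, 59.8, 45.0, 90.8 and 69.9 in *Zfp36*ΔARE replicates 1 to 5. Only *Zfp36*ΔARE replicate 4 reached into the WT range. The log2 fold change was -0.64 (SE 0.22, adjusted p = 0.042), and the call was lost without WT replicate 1, 3, 4 or 5 or *Zfp36*ΔARE replicate 1, 2, 3 or 5 (adjusted p = 0.052 to 0.088) and with no filter on low counts (0.0502). Its ligand gene *Flt3l*, singled out after its value was seen, stood at 373 ± 69.5 and 291 ± 20.6 normalized counts (log2 fold change -0.35, adjusted p = 0.048).

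*Itgax* (Entrez 16411, chr7:128129547-128150657, plus strand, 30 exons) encodes CD11c, the integrin chain by which dendritic cells are commonly gated and which many macrophages also carry. Its normalized counts were 883, 696, 1387, 432 and 649 in WT replicates 1 to 5 and 293, 152, 157, 502 and 369 in *Zfp36*ΔARE replicates 1 to 5. It was the most variable of the 10 genes, with a coefficient of variation of 50.3% in knockin and 44.6% in WT skin, and *Zfp36*ΔARE replicate 4 lay above WT replicate 4. The log2 fold change of -1.46 (SE 0.39, 95% interval -2.33 to -0.60, adjusted p = 0.019) was the largest of the 10, at 36.3% of WT, and it was called with each library left out. The call was lost without WT replicates 1 and 3 together (-1.02, adjusted p = 0.108). It was also lost with the replicate number as a block (adjusted p = 0.069) and with the hair shaft score as a covariate (-0.60, adjusted p = 0.51). Of the 50-base stretches of the *Itgax* transcript, 9.61% occur unchanged in the neighbouring integrin gene *Itgad*, so reads from these stretches are uncertain.

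*Zbtb46* (Entrez 72147, chr2:181387762-181459426, minus strand, 5 exons) encodes a factor that within the immune system is restricted to cDCs and their precursors and is also present in endothelium. It had 64.5, 68.7, 115, 62.1 and 72.2 normalized counts in WT replicates 1 to 5 and 76.4, 78.8, 59.3, 94.8 and 62.0 in *Zfp36*ΔARE replicates 1 to 5. The groups overlapped throughout, and the log2 fold change of -0.04 (SE 0.21, 95% interval -0.49 to 0.42, adjusted p = 0.90) changed sign without WT replicate 3 (0.15). Of 7 endothelial markers 6 were lower, with summed normalized counts from 4550 to 10057 in WT and from 2848 to 3721 in knockin skin, and *Pecam1* and *Cdh5* fell by 1.09 and 0.92 on the log2 scale (adjusted p = 0.0072 and 0.012). The part of endothelial cells in *Zbtb46* was not tested. Over the 7 other genes of the shared list 3 were lower, among them *Spi1*, which encodes the myeloid factor PU.1 (356 ± 86.0 against 170 ± 45.0 normalized counts, log2 fold change -1.07, adjusted p = 0.0085). *Cd24a* and *Dpp4*, which keratinocytes and fibroblasts use as well, stood at -0.04 and 0.27 (adjusted p = 0.83 and 0.14).

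**Figure D2:**
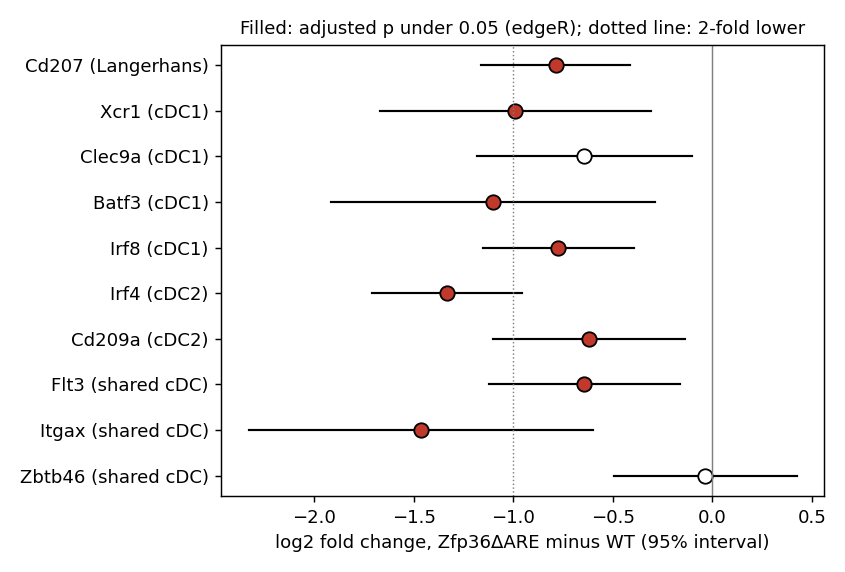
Log2 fold change of each of the 10 genes (points) with its 95% interval (lines), Zfp36ΔARE minus WT, with filled points for an adjusted p under 0.05 by edgeR and a dotted line at 2-fold lower. The estimates run from -1.46 in Itgax to -0.04 in Zbtb46, and the intervals of Clec9a and Zbtb46 belong to the 2 genes that did not pass.

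Whether the Langerhans marker changed by another amount than the dermal genes was tested on ratios within a library, which barely depend on scaling. Of 13 pairs 0 passed an adjusted p of 0.05 by an exact two-sided permutation test, adjusted over the pairs, and 2 had an unadjusted p under 0.05. With 5 mice against 5 the smallest exact p is 0.00794, and a lone pair at that p cannot go below an adjusted 0.103. The log2 ratio of *Cd207* to *Irf8* changed by -0.04 (95% interval -0.42 to 0.38, exact p = 0.77) and that of *Cd207* to *Flt3* by -0.14 (-0.40 to 0.10, exact p = 0.30). Against *Cd209a* the ratio changed by -0.20 (-0.72 to 0.28, exact p = 0.37), and against *Xcr1* by 0.20 (-0.54 to 0.98, exact p = 0.53). These intervals leave room for differences in either direction, and the last is wide. The ratio of *Cd207* to *Zbtb46* fell from 2.46 ± 0.27 to 1.71 ± 0.28 on the log2 scale without overlap (change -0.76, interval -1.14 to -0.36, exact p = 0.0079, adjusted p = 0.10). Relative to *Itgax* and *Irf4*, *Cd207* was higher by 0.72 (-0.02 to 1.5, exact p = 0.056) and 0.51 (-0.08 to 1.0, exact p = 0.071). Between the paralogs that divide the cDC branches, the ratio of *Irf8* to *Irf4* rose from -0.71 ± 0.47 to -0.15 ± 0.066 (change 0.56, interval 0.08 to 1.02, exact p = 0.040, adjusted p = 0.23), with all 5 knockin mice above the WT mean. That of *Cd209a* to *Clec9a*, a cDC2 against a cDC1 gene, changed by 0.03 (-0.28 to 0.38, exact p = 0.85).

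**Figure D3:**
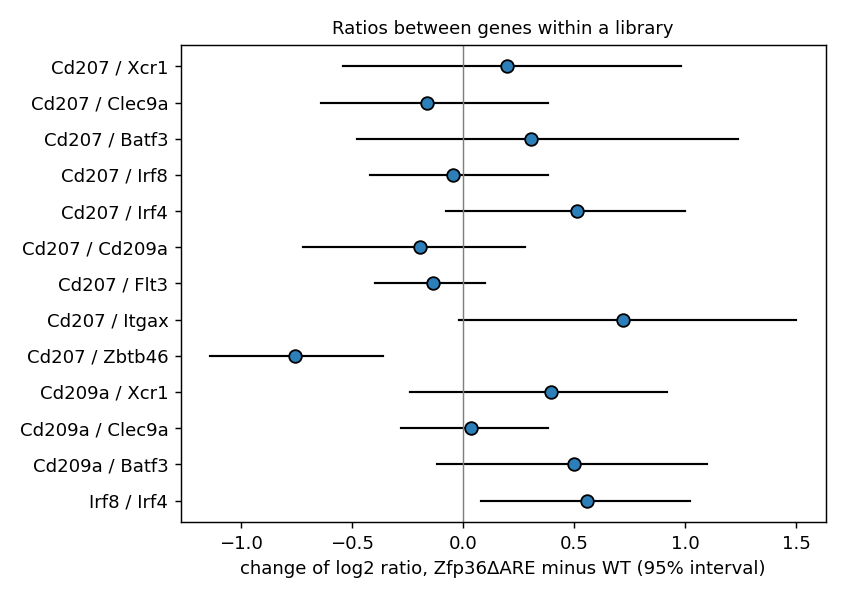
Change of the log2 ratio between 2 genes within a library (points), Zfp36ΔARE minus WT, with the 95% interval from the permutation test (lines) for the 13 pairs. The intervals of Cd207 / Zbtb46 and Irf8 / Irf4 exclude 0 before adjustment over the pairs, and the others include it.

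Genes of dendritic cell maturation and migration were lower in 7 of 15 tested, with a median of -0.74, and none was higher. *Ccl19*, a ligand of the homing receptor CCR7, fell from 158 ± 48.5 to 71.0 ± 15.4 normalized counts (log2 fold change -1.15, adjusted p = 0.0082), and *Socs2*, a feedback inhibitor of cytokine signals, fell by 1.26 (adjusted p = 0.0072). The receptor gene *Ccr7* itself, added for comparison, stood at -0.58 and did not pass (adjusted p = 0.17). *Fscn1*, an actin-bundling gene of mature dendritic cells and other cells, and *Cd274*, which encodes PD-L1, stood at 0.29 and -0.33 (adjusted p = 0.33 and 0.19). *Ccl21a* had no counts. Among plasmacytoid dendritic cell genes 1 of 8 was lower. It was *Cox6a2* (log2 fold change -1.54, adjusted p = 0.015), which is also the muscle form of a respiratory chain subunit, while *Tcf4* stood at -0.11 (adjusted p = 0.40). Of 9 skeletal muscle markers 8 were lower, their summed normalized counts ran from 223640 to 1071700 in WT and from 132470 to 282890 in knockin skin, and their part in *Cox6a2* was not tested.

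Markers of other cells that share these genes moved as well. Of 12 macrophage and monocyte markers 9 were lower, with a median of -1.28 and summed normalized counts from 25351 to 45421 in WT and from 13227 to 18611 in knockin skin. Those with the most counts, *Lyz2* and *Mrc1*, fell from 13611 to 3681 and from 5189 to 1973 normalized counts (adjusted p = 0.0037 and 0.0047). Their part in *Itgax*, *Irf8*, *Irf4* and *Cd209a* was not tested. With edgeR 0 of 7 T cell markers passed, with 0 at an unadjusted p under 0.05 and 0 by DESeq2, and *Cd4* and *Lck* stood at -0.01 and 0.21 (adjusted p = 0.98 and 0.27). The T cell sum ran from 720 to 1225 in WT and from 716 to 1020 in knockin skin. NK cell markers were sparse, with 2 of 6 tested, *Nkg7* at -0.15 and *Gzma* at -0.14 (adjusted p = 0.51 and 0.83), and 0 of them at an unadjusted p under 0.05 or by DESeq2. Adipocyte markers were lower in 6 of 8, with a median of -1.19, and hair shaft genes were higher in 5 of 14. All 14 hair shaft genes were higher without overlap between the groups, and all 14 had an unadjusted p under 0.05 and passed with DESeq2, with a median of 2.21 and summed normalized counts from 3373 to 108310 in WT and from 167600 to 476930 in knockin skin.

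**Figure D4:**
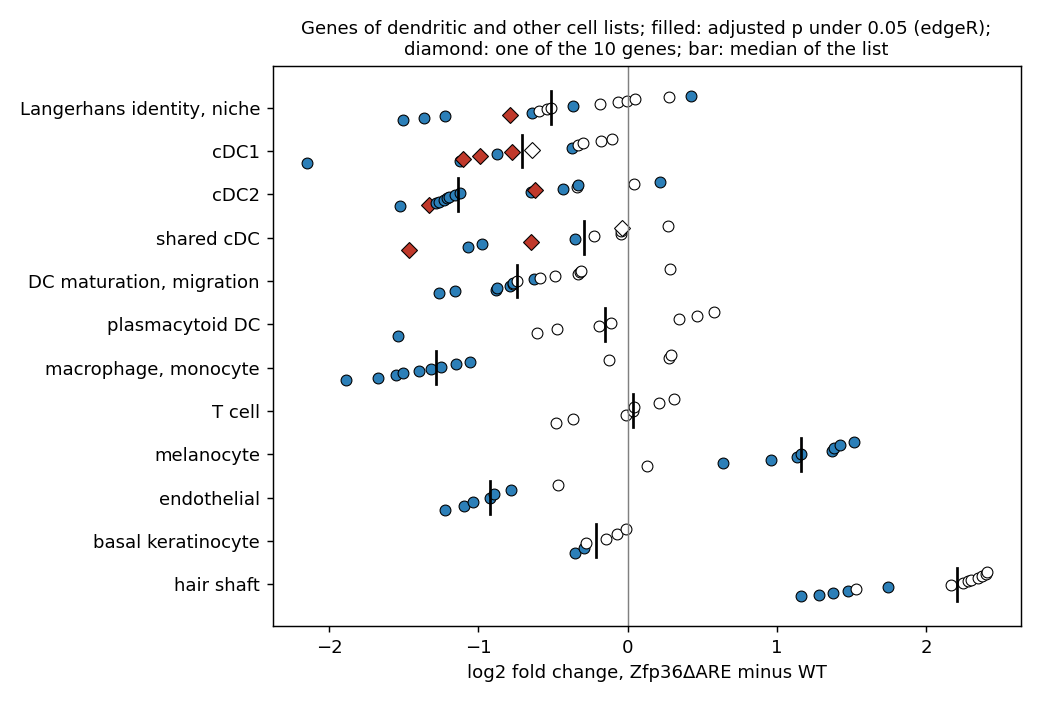
Log2 fold changes, Zfp36ΔARE minus WT, of the tested genes (points) of 6 dendritic cell lists and 6 lists of other skin cells, filled at an adjusted p under 0.05 by edgeR, with diamonds for the 10 genes and a bar for the median of each list. The cDC2 list (median -1.14) lies near the macrophage list (-1.28), and the melanocyte (1.16) and hair shaft (2.21) lists on the other side of 0. The cDC1 list (-0.71 with its diamonds, -0.35 without them) lies between the macrophage list and the T cell list (0.03).

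The profile over the 10 libraries placed each gene beside others. Likeness was taken as the root-mean-square difference of log2 normalized counts after centring each gene, over genes that averaged 50 or more normalized counts. Nearest to *Itgax* were *Clec7a* (0.14), *Itgb2* (0.22) and *Cybb* (0.22), which encode the β-glucan receptor dectin-1, the β chain that pairs with CD11c and a subunit of the phagocyte oxidase. The spread of *Itgax* itself on this measure was 0.97. Nearest to *Irf4* were *Tgfbr2* (0.12), *Pld4* (0.15), an endolysosomal nuclease of myeloid cells, and *Ggt5* (0.15), against a spread of 0.69. *Flt3* lay closest to the lymphocyte genes *Klrb1b* (0.12) and *Il2ra* (0.13) and to *Col7a1* (0.13), against 0.44, and *Zbtb46* to *Cd3d* (0.17), *Sept1* (0.17) and *Inpp4b* (0.18), against 0.28. The nearest to *Cd207* were *Trim47* (0.10), *Mrgprf* (0.11) and *Pdgfb* (0.11), against 0.47. Nearest to *Irf8* were *Fmo5*, *Rasa4* and *Plscr4* (0.096 to 0.097, against a spread of 0.44), and nearest to *Cd209a* were *Akap7*, *Fas* and *Casq2* (0.15 each, against 0.44). The low genes *Xcr1*, *Clec9a* and *Batf3* lay farther from their nearest genes *Rai2* (0.24), *Dnajc28* (0.17) and *Sox17* (0.33). The libraries share the difference between groups, so genes of like fold change are near each other on this measure.

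Promoter sequences from RefSeq (GRCm38.p6, 250 bases before to 50 after the annotated start) were found for all 10 genes, with 11 promoters in total. The one of *Zbtb46* belongs to an alternative start inside the gene, far from the 5′ end of the span given above. They were searched on both strands for the AP-1 site TGANTCA, which is the element that TPA and BATF factors act through, for the IRF element GAAANNGAAA, for the PU.1 site GAGGAAGT and for the composite ETS-IRF element GGAANNGAAA, which can overlap the IRF and PU.1 letters. The AP-1 letters were in *Cd207*, *Itgax* and *Zbtb46*, 3 of 10 genes, against 7.81% of 32851 promoters. The composite letters were in *Cd209a* alone, against 2.72% of promoters, and the IRF and PU.1 letters, present in 3.44% and 3.20% of promoters, were in none of the 10. The matches are shown in capitals with 10 bases on each side, written on the strand of the gene, for the 3 genes in which they lie close to the 5′ end of the gene.
Cd207, chr6:83677848-83677874, minus strand: gcctgcttttTGACTCAtttcccgttt
Itgax, chr7:128129484-128129510, plus strand: ccacctcctcTGAGTCAcgctgacaac
Cd209a, chr8:3748974-3749003, minus strand: cacttctcaaTTTCTCTTCCtaagtaagat
The first base of the match lay 7 bases before the start in *Cd207*, 56 in *Itgax* and 9 in *Cd209a*, where it is on the opposite strand. The AP-1 letters were thus in 2 genes that fell and, at its internal start, in *Zbtb46*, which did not pass.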

How the data were processed

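Reads whose mean quality was below 20 were discarded by the authors. STAR 2.5.2b aligned the others to mm10, featureCounts (Subread 1.5.0-p1) counted fragments per gene, and raw counts were deposited. The counting annotation, strand setting and handling of fragments that match several genes are not given in the sources used here. The study tested with DESeq2. Rows with no gene name (2, with 7.38e-05% of counts) were left out.

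Counts were scaled by TMM, filtered with filterByExpr and tested with edgeR 4.0.16 (robust quasi-likelihood, genotype as the only term) in R 4.3.3, with Benjamini-Hochberg adjustment over 15543 genes. The 95% intervals use the moderated degrees of freedom. Alternatives used limma 3.58.1 and DESeq2 1.42.0. Ratios used log2(normalized count + 1). Scripts were tested on simulated data. Replicates are separate mice, and the closest pair of libraries within a group differed by far more than sampling noise (chi-square per gene 21.6). The 10 genes and all lists were chosen with earlier results of these data known. Genes named from the lists are the 2 with the most counts, those called at an adjusted p of 0.05 with more than a 2-fold difference, and the exceptions stated. Exon, 3′-UTR and gene positions come from GENCODE M21 on GRCm38, using the transcript with the longest coding sequence. Of the 8 T cell markers 1 (*Trdc*) was not in the table. Low counts of *Xcr1*, *Clec9a* and *Batf3* limit their precision. Totals per library were 19595024 to 36419553.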

Additional observations from a re-analysis of the deposited data

Results flagged for a closer look

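Each of the 10 genes and *Zfp36* was examined in both groups for a mouse far from the other 4, by the gap to the nearest mouse as a share of the group's range (limit 0.71 for 5 mice). Among 22 groups 4 were found, where chance gives about 1.1. The 22 groups come from the same 10 libraries and are not independent, so setting 4 against 1.1 is not a test. *Xcr1* in *Zfp36*ΔARE replicate 1, the only knockin library without Y-linked counts, stood at 47.2 normalized counts, with the other knockin mice at 21.7 to 26.4 (gap 0.818). WT replicate 3 was highest in the other cases. It had 578 normalized counts of *Irf8* against 301 to 376 (gap 0.728), 886 of *Cd209a* against 419 to 514 (gap 0.797) and 115 of *Zbtb46* against 62.1 to 72.2 (gap 0.808). This library also had the lowest hair shaft score, 7.24.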

How the results depend on the processing

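The alternatives to edgeR as described were DESeq2, limma-voom, 2 other scalings, 2 other filters, non-robust dispersions, a replicate block, a hair shaft covariate and subsets of libraries. The 8 lower genes became 4 with the replicate number as a block, where 11.9% of all genes were lower, 3 without WT replicates 1 and 3 (9.06% of all genes), 0 with the hair shaft score as a covariate (3 before adjustment, lowest adjusted p 0.076, 11 of 15543 genes lower) and 0 in the 6 libraries without Y-linked counts (2 before adjustment, lowest adjusted p 0.295, with 0 genes of 16373 called), where the lone knockin mouse is assumed to vary like the WT mice. With each library left out in turn they numbered 4 to 7, where 12.9% to 19.1% of all genes were lower. The 3 genes past a fold of 2 became 1 without WT replicates 1 and 3, 0 with the hair covariate and 0 without Y-linked libraries, and 2 to 4 with each library left out. In all other settings the counts stayed within 1.5 times. None of these settings called any of the 10 genes higher, and 0 were higher at an unadjusted p under 0.05. The replicate numbers did not pair the mice, with correlations of same-numbered libraries from -0.18 to 0.085 and no library closest to its own number. With the block the calls of *Xcr1* (adjusted p = 0.079), *Cd209a* (0.084), *Flt3* (0.106) and *Itgax* (0.069) were lost. *Zbtb46* changed sign with limma-voom (0.0013), without WT replicates 1 and 3 (0.13), without Y-linked libraries (0.0082), with the hair covariate (0.38) and between -0.14 and 0.15 with each library left out. The ratios were recomputed with a pseudocount of 0.5, without WT replicates 1 and 3 and with each library left out, and 0 of 13 passed. A lone pair could not go below an adjusted 0.103 in any of these settings, so this 0 does not show that the ratios are stable. With each library left out *Cd207* to *Irf8* ran from -0.14 to 0.039 and *Cd209a* to *Clec9a* from -0.090 to 0.091. The cause of these changes was not tested. *Xcr1*, *Clec9a* and *Batf3* are limited by depth, with at most 80 counts in a library.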
